A study of Rattus norvegicus with 4 samples.

Results

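The miR-146 family in the rat consists of the miRNAs cut from the hairpins Mir146a and Mir146b, each of which gives an arm from its 5′ side (5p) and one from its 3′ side (3p). Its 4 arms, rno-miR-146a-5p, rno-miR-146a-3p, rno-miR-146b-5p and rno-miR-146b-3p, were taken by name from the 758 miRNAs on a single-colour Agilent rat miRNA array. The prefix rno-, for rat, is left out from here on. The RNA came from extracellular vesicles (small membrane particles released by cells) of macrophages grown from rat bone marrow. In the M0_sham group (n = 2 arrays) the vesicles came from unpolarised (M0) macrophages of rats that had sham surgery. In the M1_OA group (n = 2 arrays) they came from inflammatory (M1) macrophages of rats whose right knee had been made osteoarthritic (OA) by surgery on the medial meniscus and transection of the anterior cruciate ligament. All animals were male wild-type Sprague-Dawley rats, operated on at 8 weeks of age and used 8 weeks later. In both groups, marrow cells sorted for CD45 and CD11b were grown to day 7 in medium with 10% fetal bovine serum and 20 ng/mL M-CSF, the growth factor that drives macrophage formation. M1 cells then had 48 hours of lipopolysaccharide (LPS, 100 ng/mL) with interferon-γ (20 ng/mL), followed by ATP at 5 mM for 60 minutes. The effects of surgery, polarisation, ATP and scan session, which goes with group, cannot be told apart in this design. Nothing in the labels ties the replicates to separate animals or cultures, and p-values therefore cover the spread between these arrays alone, which may be technical.

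LPS is sensed by Toll-like receptor 4, which signals through the adaptor MyD88, the kinases IRAK1 and IRAK4 and the ubiquitin ligase TRAF6 to the transcription factor NF-κB. In human and mouse cells NF-κB induces transcription of miR-146a, and miR-146a and miR-146b repress TRAF6 and IRAK1, which makes the family a known negative feedback on the receptor that induces it. A miRNA chooses its targets mainly through its seed, bases 2 to 8 from the 5′ end.

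The mature sequences are shown because the family's arms fall into groups by seed, and because the 5p arms of both genes are so alike that their probes have to tell them apart. They are RefSeq sequences on the GRCr8 assembly, written 5′ to 3′ with the seed in capitals.
miR-146a-5p: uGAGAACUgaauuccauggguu
miR-146b-5p: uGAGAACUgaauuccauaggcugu
miR-146a-3p: aCCUGUGAaguucaguucuuu
miR-146b-3p: cCUAGGGAcucaguucuggug
The 5p arms share the whole seed and 20 of 22 bases compared from the 5′ end. Counted from 1 at that end, with the base of miR-146a-5p first, they differ by G18A and U21C, and miR-146b-5p runs on for the further bases GU. The 3p arms have different seeds and share 6 of 21 bases in an alignment without gaps. Of the 693 mature rat miRNA names in the RefSeq table, which names 685 of the 758 miRNAs on the array, the seed GAGAACU was held by miR-146a-5p and miR-146b-5p and by no other. Each 3p seed was held by its own arm alone.

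The hairpins show where each arm lies, with both arms in capitals.
Mir146a, GRCr8 chr10:28349996-28350090, minus strand: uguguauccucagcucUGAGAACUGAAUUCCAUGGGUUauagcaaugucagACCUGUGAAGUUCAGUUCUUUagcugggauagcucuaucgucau
Mir146b, GRCr8 chr1:255144860-255144947, plus strand: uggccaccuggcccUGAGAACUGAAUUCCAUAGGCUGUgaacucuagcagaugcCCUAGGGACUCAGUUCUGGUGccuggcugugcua
In the RefSeq annotation Mir146a lies within the long non-coding RNA gene LOC134480673, with Pttg1 as the next protein-coding gene on the side of higher coordinates. Mir146b lies within the span of C1h10orf95. Nfkb2, which encodes an NF-κB subunit, is the fourth protein-coding gene from Mir146b on the side of lower coordinates.

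Each arm has 2 probes on the array, printed as 8 spots each, so that 16 spots measure an arm on every array. The probes of the 5p arms are shown because they pair with the miRNA from its 3′ end, where miR-146a and miR-146b differ. Capitals mark the bases that face a difference between both 5p arms, including the further bases of miR-146b-5p.
miR-146a-5p, 19-base probe: aAccCatggaattcagttc
miR-146a-5p, 20-base probe: aAccCatggaattcagttct
miR-146b-5p, 20-base probe: ACaGccTatggaattcagtt
miR-146b-5p, 21-base probe: ACaGccTatggaattcagttc
The probes of miR-146a-5p pair with bases 4 to 22 and 3 to 22 of the miRNA, and those of miR-146b-5p with bases 5 to 24 and 4 to 24. Both differences between the arms therefore lie under every 5p probe, near its 5′ end.

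miR-146a-5p was measured in M1_OA vesicles and was not well above background in M0_sham vesicles. A spot is called well above background by a flag in the scanner files, and an arm was called so on an array if, for 1 or both of its probes, the share of spots with the flag was over 0.5. The processed signal (arbitrary units, background subtracted, probes summed, before scaling) was 191 in M1_OA replicate 1 and 107 in replicate 2. In M0_sham it was -1.35 on replicate 1 and -4.84 on replicate 2. The flag was carried by 16 of 16 spots on M1_OA replicate 1 and 15 of 16 on M1_OA replicate 2. It was carried by 0 of 16 spots on each M0_sham array.

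Both probes of miR-146a-5p showed this pattern. The 20-base probe gave 155 ± 8.44 (SD, n = 8 spots) on M1_OA replicate 1 and 86.9 ± 6.26 (SD, n = 8 spots) on M1_OA replicate 2. The 19-base probe gave 36.1 ± 3.38 and 20.0 ± 3.12 (SD, n = 8 spots each) on the same arrays. The signal of M1_OA replicate 1 over that of replicate 2 was 1.78 for the 20-base probe and 1.80 for the 19-base probe, so both probes placed the replicates at the same distance. On M0_sham arrays the mean of either probe lay between -3.32 and -0.473. Spots of one probe on an array are repeats of 1 hybridisation and not replicates of the condition.

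**Figure D1:**
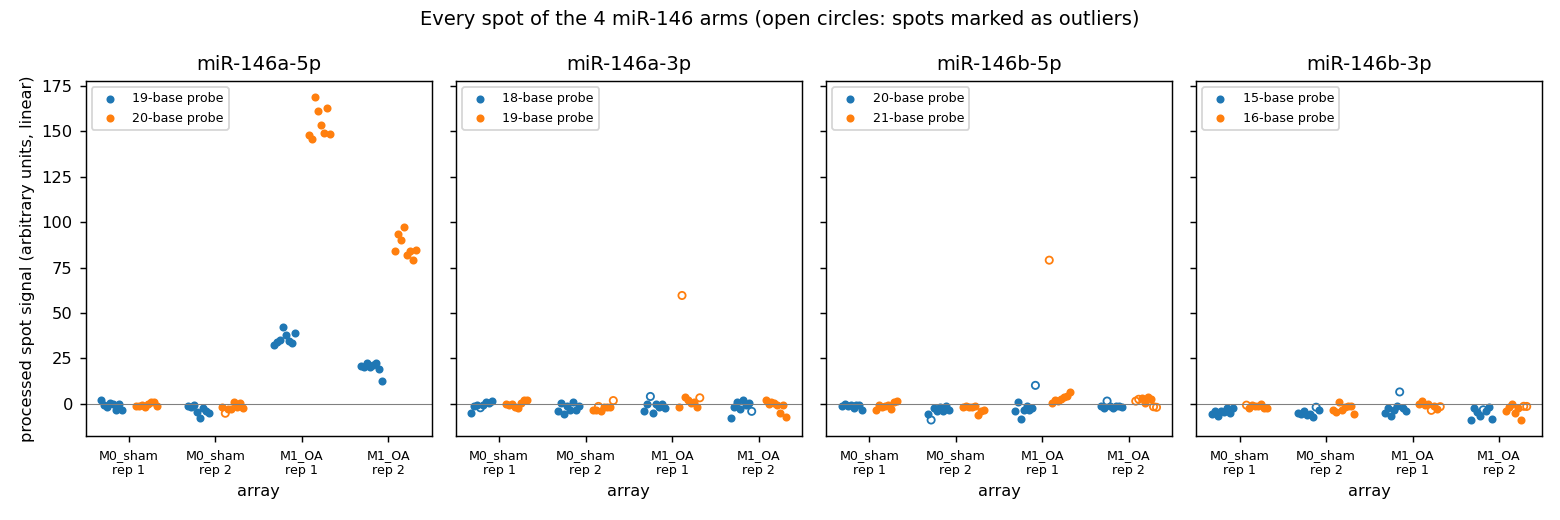
Processed signal (arbitrary units, linear axis) of every spot of the 4 miR-146 arms on the 4 arrays, by probe; open circles are spots that the scanner software marked as outliers, which were left out of the means. On M1_OA arrays the spots of miR-146a-5p lie between 12.9 and 169, while the other arms lie near 0 apart from 2 marked spots at 59.6 and 79.1.

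The other arms stayed at background on all 4 arrays. miR-146b-5p, which shares its seed with miR-146a-5p, had summed signals of -2.30 and -5.68 in M0_sham (replicates 1 and 2) against -0.00622 and 1.06 in M1_OA. Both M1_OA values lay above both M0_sham values, and how many of the 758 miRNAs showed such a shift was not counted. All 4 values lay far under the lowest signal called well above background on their array. That signal was 7.78 and 26.7 in M0_sham and 16.9 and 14.6 in M1_OA. The shift came with its 21-base probe, at 3.11 ± 2.09 (SD, n = 7 unmarked spots) and 2.63 ± 1.60 (SD, n = 4) in M1_OA against -1.09 ± 1.68 and -2.51 ± 1.73 (SD, n = 8 each) in M0_sham. The 20-base probe gave -3.12 and -1.56 in M1_OA against -1.21 and -3.17 in M0_sham, with overlapping groups.

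Negative control spots, which carry sequences that should bind no rat miRNA, were brighter on the M1_OA arrays as well. Their median over 434 spots was 4.35 and 4.69 in M0_sham (replicates 1 and 2) against 10.8 and 7.21 in M1_OA. The means of both miR-146b-5p probes lay under that median on every array, and the part of this background in the shift of the 21-base probe was not tested. The 20-base probe of miR-146a-5p lay above every unmarked negative control spot on both M1_OA arrays, where the brightest were 28.0 and 21.3. The 19-base probe lay above them on M1_OA replicate 1 (36.1) and within their range on replicate 2 (20.0). The flag for well above background was carried by 22.1% and 6.68% of negative control spots on M1_OA replicates 1 and 2, against 9.68% and 0.461% on M0_sham replicates 1 and 2.

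**Figure D2:**
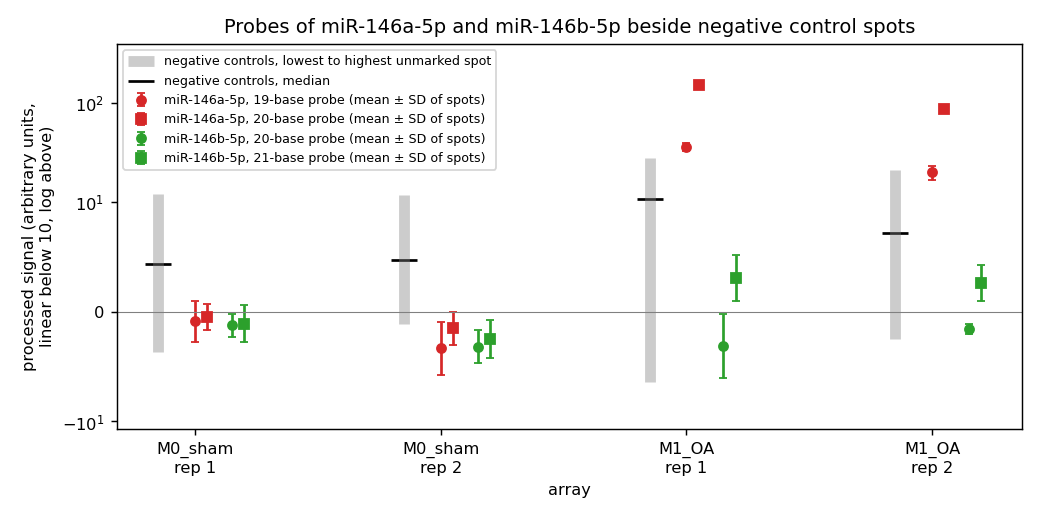
Mean processed signal of the miR-146a-5p (red) and miR-146b-5p (green) probes on each array, with bars for the SD of the unmarked spots, beside the range and median of the negative control spots (grey and black); the axis is linear below 10 and logarithmic above. The 20-base probe of miR-146a-5p stands above the negative controls on both M1_OA arrays, at 155 and 86.9, and both miR-146b-5p probes stand under their median on all 4 arrays.

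The passenger arms gave no signal above background. miR-146a-3p, from the hairpin of miR-146a-5p, had summed signals of -0.695 and -4.88 in M0_sham and -1.31 and -2.76 in M1_OA, and its groups overlapped. miR-146b-3p had -5.66 and -7.58 in M0_sham and -4.05 and -8.94 in M1_OA, again with overlap. The probes of miR-146b-3p, at 15 and 16 bases, pair with bases 7 to 21 and 6 to 21 of their arm and are the shortest of the family. At this sensitivity the arrays do not resolve how much of these 3 arms the vesicles held in either group.

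For the test, arrays were brought to a common 75th percentile, taken over the 11 miRNAs that every array measured above background. A floor of 7.90 was then applied, equal to the smallest scaled signal called well above background on any array. The fit took the 41 miRNAs that both arrays of M0_sham, both of M1_OA or all 4 measured above background, and was made with limma, a linear model that shares the estimate of spread between miRNAs, with Benjamini-Hochberg (BH) adjustment over all 41. miR-146a-5p was the 1 of 4 family members that was tested, and it entered through its M1_OA signal alone. It passed as higher in M1_OA vesicles, where 22 of the 41 tested miRNAs, 53.7%, passed as higher and 4 of them, 9.76%, as lower. Of the 24 miRNAs that entered through M1_OA alone, 19 (79.2%) passed as higher, so a pass was largely fixed by the way of entry.

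The log2 difference of miR-146a-5p between M1_OA and M0_sham was 3.36 ± 0.16 (SE, n = 2 and 2; limma, BH-adjusted p = 0.00104), against a median of 0.62 over all tested miRNAs and of 1.71 over the 24 that entered through M1_OA alone. It ranked 3 of 41 by size, 5 with each array's own detection limit as floor and 7 with normexp, another background correction. Both M0_sham values were at the floor, so this difference is set by the floor and its error holds no spread of the M0_sham arrays. As a lower bound, which takes each M0_sham array at its own lowest detected signal, the level of miR-146a-5p was higher by at least 3.18-fold with scaling and at least 9.91-fold without. The scaled bound was 2.30-fold without M0_sham replicate 1, 6.08-fold without M0_sham replicate 2 and 1.25-fold where every spot of a probe had to carry the flag, and with normexp it turned, to 0.882. When these detection limits, log2 3.99 and 5.35 after scaling, took the place of the common floor in the fit, the log2 difference of 1.67 ± 0.64 (SE) no longer passed (limma, BH-adjusted p = 0.0600). In that fit 9.76% of the 41 miRNAs passed as higher, and their median log2 difference was -0.21. Without scaling the same fit gave 3.31 ± 0.78 (SE), which passed (limma, BH-adjusted p = 4.68e-04), as did 36.6% of miRNAs. Its SE was larger and its p-value smaller than those of the 3.36 above. That p-value therefore rests mostly on the spread shared between miRNAs. The call also ended when M0_sham replicate 2 was left out, at 3.23 (limma, BH-adjusted p = 0.0778), where 27.1% of miRNAs passed as higher. With normexp it ended at 0.067 (limma, BH-adjusted p = 0.793), where 9.76% passed as higher.

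The scaling sets the size of the difference and less its distance from other miRNAs. Without scaling the log2 difference was 4.20 ± 0.34 (SE; limma, BH-adjusted p = 3.10e-04), and 78% of miRNAs passed as higher. With labelling spike-ins as the scale it was 4.62 ± 0.27 (SE; limma, BH-adjusted p = 7.96e-04), and 82.9% passed as higher. The median of all tested miRNAs moved with it, to 1.96 and 2.51. The distance of miR-146a-5p from that median was 2.74 as reported, 2.24 without scaling, 2.11 with the spike-ins and 2.62 with quantile normalization. In the authors' deposited value table miR-146a-5p was at the table's floor, log2 -3.32, on both M0_sham arrays and at 4.37 and 3.41 on M1_OA replicates 1 and 2. miR-146b-5p, miR-146a-3p and miR-146b-3p were listed at that floor on all 4 arrays.

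**Figure D3:**
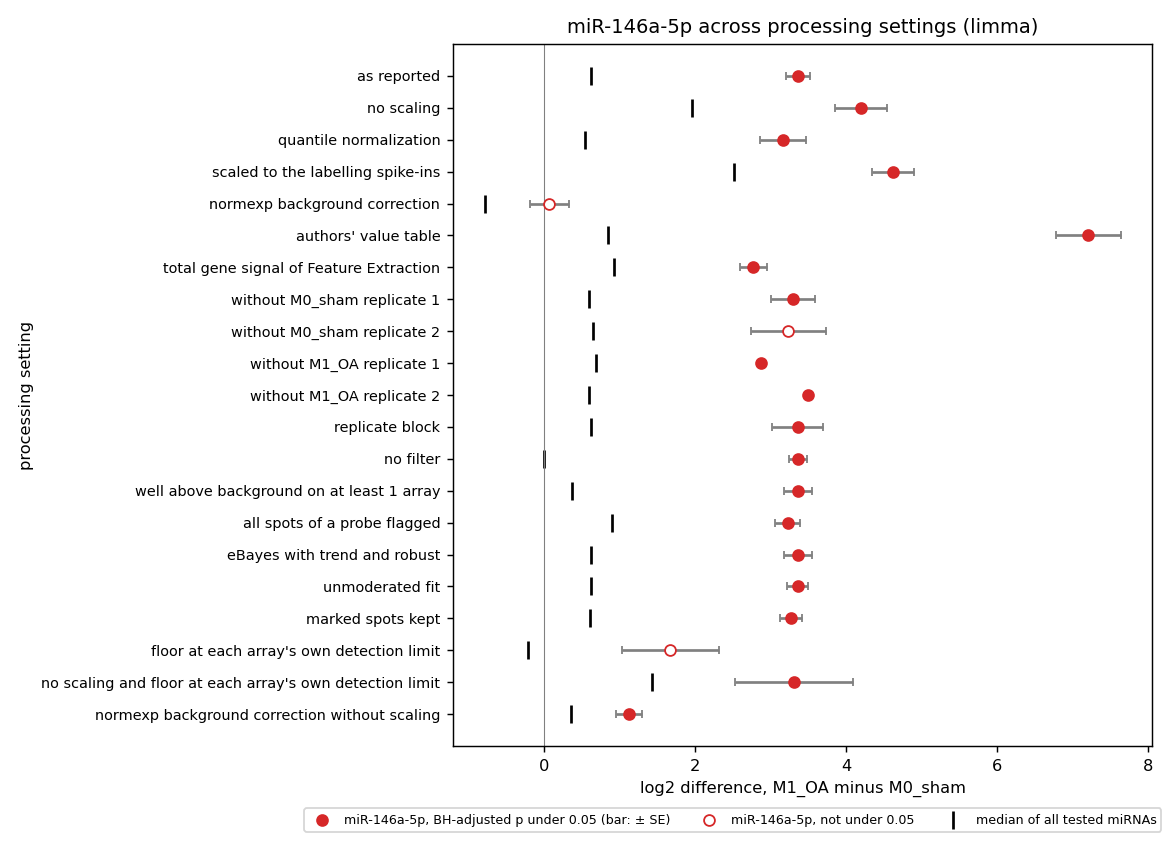
Log2 difference of miR-146a-5p between M1_OA and M0_sham (horizontal axis) under each processing setting (rows), with the SE as bars and the median of all tested miRNAs as black marks; filled points passed a BH-adjusted p of 0.05. The difference is 3.36 as reported and stands above the median of the tested miRNAs in every setting drawn, and it did not pass in 3 of them.

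To set miR-146a against miR-146b, the change of each was compared and not their levels, since different probes bind with different strength. miR-146b-5p was at the floor on all 4 arrays, so its change was not measured and may lie below the floor. The difference between both changes, 3.36 on the log2 scale, is therefore the floor-set value of miR-146a-5p again and does not compare the members. With 2 arrays against 2, a two-sided exact permutation test cannot give less than p = 0.333, the value found here. The M1_OA arrays carry signal for the member encoded by Mir146a and none above background for the member with the same seed encoded by Mir146b.

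A list was made of 24 other miRNAs held to be induced by Toll-like receptor or NF-κB signalling or to act on it. It was drawn up with earlier results of these data known, so it is not independent of them. All 24 were on the array, 5 were well above background on at least 1 array and 4 were tested. As many as 3 of these 4 passed as higher in M1_OA vesicles and 0 as lower. All 3 entered the test through M1_OA alone, where 79.2% of miRNAs passed as higher (53.7% over all 41), so the count is near the one that this way of entry gives. The median log2 difference of the 4 tested list members was 1.99, with miR-223-3p included, which did not enter through M1_OA alone. It was 1.71 over the 24 miRNAs that did, the 3 list members among them, and 0.62 over all 41. These sets are unlike and overlap, and many of the values are set by the floor. With M0_sham arrays at their own detection limits 1 of the 4 passed, miR-21-5p, where 9.76% of all 41 passed as higher. Without scaling the same fit passed 2 of the 4, miR-21-5p and miR-155-5p, where 36.6% of all 41 passed as higher. As for miR-146a-5p, the folds of the 3 that passed with the common floor are lower bounds. Their log2 differences and p-values with the common floor are those of floored values and do not test the bounds. miR-21-5p, a miRNA that STAT3 and NF-κB induce, had signals of 387 and 320 in M1_OA against 3.10 and 0.122 in M0_sham. With the common floor its log2 difference was 4.66 (limma, BH-adjusted p = 0.00102). The lower bound came to 7.85-fold, and the call held with own detection limits (limma, BH-adjusted p = 2.65e-04).

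miR-155-5p, which is induced with miR-146a by LPS and acts against the phosphatase SHIP1 and the inhibitor SOCS1, had 72.4 and 60.3 in M1_OA against -3.30 and -6.63 in M0_sham. With the common floor its log2 difference was 2.25 (limma, BH-adjusted p = 0.00207). The lower bound came to 1.47-fold, and the call ended with own detection limits (limma, BH-adjusted p = 0.510). Without scaling the bound was 4.58-fold, and the call held with own detection limits (limma, BH-adjusted p = 0.0191). let-7i-5p, which represses Toll-like receptor 4 in human cells, had 47.2 and 45.4 against -1.96 and -4.98. With the common floor its log2 difference was 1.73 (limma, BH-adjusted p = 0.00788). Its lower bound came to 1.03-fold, and its call ended with own detection limits (limma, BH-adjusted p = 0.944). Without scaling the bound was 3.21-fold, and the call ended there too (limma, BH-adjusted p = 0.0728). Both M1_OA arrays lay above both M0_sham arrays for miR-21-5p, miR-155-5p and let-7i-5p, which their entry through M1_OA alone largely fixes. How many of the 758 miRNAs were separated in this way was not counted. miR-223-3p, the abundant miRNA of monocytes and granulocytes, had 59.7 and 43.7 in M1_OA against 23.1 and 16.6 in M0_sham and did not pass after scaling (log2 difference -0.25; limma, BH-adjusted p = 0.576). Its direction turned without scaling, where it passed as higher (1.38; limma, BH-adjusted p = 0.00932). miR-212-3p, transcribed with miR-132, was well above background on M1_OA replicate 2 alone (23.2) and was not tested.

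**Figure D4:**
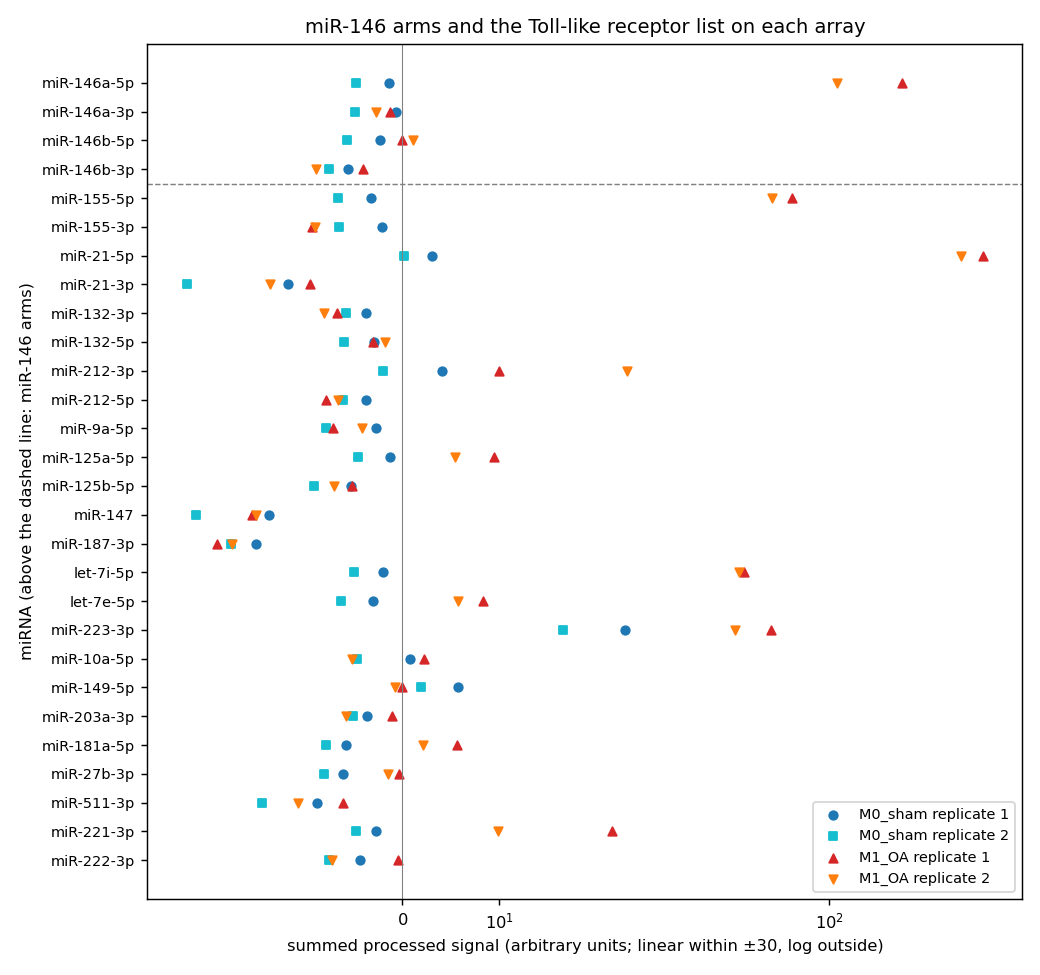
Summed processed signal (arbitrary units; the axis is linear within ±30 and logarithmic outside) of the 4 miR-146 arms and of the 24 miRNAs of the Toll-like receptor list, with 1 marker for each array. miR-146a-5p, miR-155-5p, miR-21-5p and let-7i-5p show both M1_OA arrays (red and orange) far to the right of both M0_sham arrays (blue and cyan).

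Among the other tested miRNAs, miR-34a-5p had the profile nearest to that of miR-146a-5p, by the Euclidean distance between log2 values centred on each miRNA's own mean over the 4 arrays. miR-34a-5p, a target of p53, lay at a distance of 0.526, with signals of -1.54 and -5.81 in M0_sham and 122 and 92.1 in M1_OA. miR-22-3p (1.00), miR-1896 (1.04) and miR-24-3p (1.08) followed. These 4 points include 2 at the floor for miR-34a-5p, miR-22-3p and miR-24-3p, so the likeness rests on the size of the M1_OA signal above the floor and on the order of the M1_OA arrays.

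The number of miRNAs well above background was 23 and 13 in M0_sham and 42 and 45 in M1_OA, and 703 of 758 were so on no array. Of the myeloid markers miR-223-3p was well above background on 3 arrays, and miR-142-3p, miR-142-5p and miR-223-5p on none. Of 17 markers of red cells, lymphocytes, stroma, liver and serum, epithelium and endothelium, 0 were well above background on any array, and their summed signal was -57.9 and -104 in M0_sham and -67.8 and -83.5 in M1_OA. The lymphocyte marker miR-150-3p nevertheless moved with the group, at -2.23 and -4.04 in M0_sham against 17.9 and 15.3 in M1_OA. By spot flags it was not well above background, although its M1_OA signals exceed the lowest ones that were, 16.9 and 14.6. The other arm, miR-150-5p, was at 0.194 and -3.11 in M0_sham against -9.84 and -8.79 in M1_OA. The part of lymphocyte vesicles in the results was not tested. Whether vesicle number or RNA per vesicle differed cannot be told apart from a change of one miRNA within them.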

How the data were processed

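RNA of 4 vesicle samples was hybridised to 4 one-colour (Cy3) arrays. Per the file headers, spot intensity was read by the authors with Agilent Feature Extraction 10.7.1.1, which subtracted background and spatial trend (values can be below 0) and did not scale arrays to each other. Flags of 0 or 1 come from the same files. The authors' deposited value table is on a log2 scale with a floor of -3.32; its normalization is not given in the sources used here, and any 2 columns shared 91.0% to 95.5% of their values above the floor.

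Unmarked spots of a probe were averaged and the probes of a miRNA summed (1806 probes, 12128 spots an array; 0 saturated). Scaling, floor, filter and test are given with the results (limma 3.58.1, lmFit and eBayes, two-sided, in R 4.3.3; Python 3.11.15, scipy 1.17.1, matplotlib 3.10.9). The fit was tested on simulated data without a floor or an entry filter, which does not cover the p-values of floored miRNAs. The labels' protocol on labelling, from 0.2 µg RNA, describes cRNA amplification, and whether it was used here is unclear. Scan session goes with group, so they cannot be told apart. The number of arrays limits the precision. Named are the 4 members, detected miRNAs of the Toll-like receptor and marker lists and the 4 nearest profiles. Members and lists were chosen with earlier results of these data known. Alternatives covered scaling, background correction, floor, filter, detection call, probe summary, variance model, replicate numbers and single arrays left out.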

Additional observations from a re-analysis of the deposited data

Results flagged for a closer look

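Single spots with signal on M1_OA replicate 1 were left out of the analysis above because the scanner software had marked them as outliers. On the 21-base probe of miR-146b-5p, 1 spot read 79.1 and carried the flag for well above background, while the other 7 spots of that probe read 0.390 to 6.67. On the 19-base probe of miR-146a-3p, 1 spot read 59.6 with the flag, while its other 7 spots read -1.75 to 3.55. Both spots drew attention because no M0_sham spot of either arm carried the flag. They lie near each other, at row 45 and column 41 and at row 43 and column 43. Among the miRNA spots within 5 rows and 5 columns, 20.2% (18 of 89) and 17.9% (15 of 84) were marked as outliers, against 11.0% over the whole array. The part of this region of the array in the readings was not tested. With marked spots kept, miR-146b-5p and miR-146a-3p were still not well above background by the share of flagged spots, and miR-146a-5p kept its call (log2 difference 3.27; limma, BH-adjusted p = 0.00113).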

How the results depend on the processing

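miR-146a-5p was higher in M1_OA in all 22 alternatives run, a sign that M0_sham values at the floor largely set in advance. Its log2 differences ran from 0.067 to 7.21, the highest in the authors' deposited table, whose floor is lower. Averaging probes gave the same values, and a threshold of 0.1 could not end a call made at 0.05. With these included, miR-146a-5p kept its call in 19 of the 22, a count that its entry through M1_OA alone largely set in advance. It did not pass with normexp (0.067; limma, BH-adjusted p = 0.793), whose offset of 50 is added per probe and then scaled with each array; the lower bound turned there, to a log2 of -0.18. Without scaling after normexp it passed (1.13; limma, BH-adjusted p = 0.0112). It did not pass with each array's own detection limit as floor (1.67; limma, BH-adjusted p = 0.0600), chosen after seeing the data, as were the unscaled form of that floor, unscaled normexp and the marked spots. With arrays left out in turn the difference ran from 2.87 to 3.50 and missed the threshold when M0_sham replicate 2 was out (3.23, BH-adjusted p = 0.0778 in limma); the lone array of a group is assumed to vary like the other group, and without either M1_OA array the M0_sham floor values leave no spread for this miRNA. The bound was 1.20 to 2.60 (log2) with arrays left out and 0.33 where every spot of a probe had to be flagged. Over all tested miRNAs 26 were called as reported, 17 with Feature Extraction's own total signal, 14 of 758 without a filter (669 have no spread, so the variance model is unreliable), 6 with own detection limits, 15 with these unscaled, and 20 to 24 with arrays left out. Normexp gave 4 higher and 25 lower. On the Toll-like receptor list 1 in place of 3 was called with own detection limits, where 9.76% of all 41 passed as higher. With these unscaled 2 were called, where 36.6% passed as higher. In either direction 4 were called without scaling and 4 with spike-ins, where 78% and 82.9% of all 41 passed as higher. The authors' table gave 4 (18 of 41 higher, 4 lower), unscaled normexp 4 (31 higher) and Feature Extraction's total signal 2 (15 higher, 2 lower). Normexp gave 3, where 4 passed as higher and 25 as lower, and the direction of these 3 is not given here. With replicate number as a block miR-146a-5p stayed at 3.36 (limma, BH-adjusted p = 2.92e-11), with 19 higher and 7 lower. Its SE rose from 0.16 to 0.34 while the p-value fell. That p-value therefore rests mostly on the spread shared between miRNAs and is no stronger evidence. Same-numbered arrays deviated together with a correlation of 0.31 over 41 miRNAs. With only 2 pairs they share a number, not a known source. The 75th percentile over all miRNAs was not run, as it is not above 0 on every array. Signals under an array's detection limit, 7.78 to 26.7, are not resolved.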
